A study of Mus musculus with 96 samples.

Results

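Cadherins (Cdh) and the protocadherins whose genes lie outside the clustered Pcdha, Pcdhb and Pcdhg arrays (Pcdh followed by a number) were examined across mouse brain regions, strains and drug treatment. A gene belonged to the group when a transcript cluster of the array carried 1 gene symbol made of Cdh or Pcdh and a number, and the cluster with the highest mean was used where a gene had several. This gave 35 genes, 23 Cdh and 12 Pcdh, of the 18666 genes that a cluster named alone. RNA came from 16 male mice aged 14 weeks, 8 of the strain NOD/ShiLtJ (NOD) and 8 of the strain C57BL/6J (B6). In each strain 4 mice had received clozapine, an antipsychotic drug, by intraperitoneal injection at 4 mg/kg and 4 had received the saline vehicle, with death at 3 hours after the injection. The hindbrain and the forebrain of a mouse came from one hemisphere, while the other hemisphere was kept intact and is called whole brain. By the methods the cerebellum was cut away in all mice, from whole brain too, and the olfactory bulbs were left on. The midbrain is not named as a part of its own, and markers of both midbrain and hindbrain were high in the hindbrain pieces. Every RNA was run on 2 formats of the same Affymetrix design, the 1.1ST peg arrays, which give the values below, and the 1.0ST cartridge arrays. Both are on a log2 intensity scale, on which differences stand for ratios of signal, and each format holds 48 arrays.

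Cadherins are calcium-dependent adhesion molecules that mostly bind the same cadherin on the neighbouring cell. Classical cadherins of type I and type II carry a cytoplasmic tail that holds catenins and through them the actin cytoskeleton, whereas the delta protocadherins have other tails and take part in axon growth, cell sorting and synapse formation. In the developing brain single nuclei, layers and tracts express different combinations of these genes, and many of them stay active in the adult.

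Promoters are shown for a run of protocadherin genes on chromosome 14 that differed from each other in direction between the regions, together with the delta-2 protocadherin Pcdh10. Each line gives the 250 bases before the start of the gene, from RefSeq on the mouse build GRCm38.p6, with any GC box (GGGCGG or CCGCCC, the letters on either strand) in capitals. The windows are chr14:79771313-79771562, minus strand for Pcdh8, chr14:84443313-84443562, plus strand for Pcdh17, chr14:88471397-88471646, minus strand for Pcdh20 and chr3:45378148-45378397, plus strand for Pcdh10.
Pcdh8: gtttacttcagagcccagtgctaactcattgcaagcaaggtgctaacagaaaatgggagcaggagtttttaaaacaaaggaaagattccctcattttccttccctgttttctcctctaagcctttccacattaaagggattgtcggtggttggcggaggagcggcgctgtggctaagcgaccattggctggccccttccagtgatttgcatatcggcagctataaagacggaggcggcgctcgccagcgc
Pcdh17: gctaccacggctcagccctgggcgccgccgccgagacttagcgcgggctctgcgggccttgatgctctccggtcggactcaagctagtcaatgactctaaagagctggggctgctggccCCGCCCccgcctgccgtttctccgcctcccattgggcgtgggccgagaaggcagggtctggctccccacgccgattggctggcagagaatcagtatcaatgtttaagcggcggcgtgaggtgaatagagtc
Pcdh20: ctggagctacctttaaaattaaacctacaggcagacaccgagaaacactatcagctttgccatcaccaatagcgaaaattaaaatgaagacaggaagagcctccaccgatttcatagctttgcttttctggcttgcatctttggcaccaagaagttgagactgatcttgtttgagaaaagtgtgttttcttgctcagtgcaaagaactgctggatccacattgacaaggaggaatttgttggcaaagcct
Pcdh10: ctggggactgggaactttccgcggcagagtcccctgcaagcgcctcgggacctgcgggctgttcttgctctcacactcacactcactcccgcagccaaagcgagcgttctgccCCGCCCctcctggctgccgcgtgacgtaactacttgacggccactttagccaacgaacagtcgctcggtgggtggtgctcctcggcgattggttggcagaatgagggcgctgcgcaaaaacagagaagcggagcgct
Pcdh17 and Pcdh10 held 1 GC box each and had a GC content of 64.8% and 63.2%. Pcdh8 had 51.2% GC and the letters TATAAA, and Pcdh20 had 42.4% GC and none of the motifs searched. Promoters of 22 of the 35 members were in the RefSeq table. A GC box was found in 9 of the 22 members and in 32.9% of the 27025 genes of the table, TATAAA (either strand) in 2 members and 13.0% of genes, CACGTG in 1 member and 6.05%, and CAGCTG in 2 members and 12.8%. The median GC content was 58.2% over the members and 52.0% over all genes. These matches describe the letters of the windows and were not set against expression.

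The labels of the regions were checked first. In hindbrain all 8 measured markers of hindbrain and midbrain rose against forebrain (median difference 1.54) and all 6 measured forebrain markers fell (median -1.71). The medians of the 1.1ST arrays spanned 6.28 to 6.61. 5 hindbrain arrays (NOD mice DD658, DD676 and DD678, B6 mice BB701 and BB703) stood apart, with a mean level of 7 cerebellar markers of 7.89 to 10.05 against 6.60 to 7.29 in the other 11, and all 5 mice had received clozapine. A NOD whole brain array (mouse DD656) had a low mean level of forebrain markers, and a NOD forebrain array (mouse DD678) carried hindbrain markers. Results were also computed without the 5 arrays and without these 7. The B6 hindbrain arrays of mice BB685 and BB702 had a mean level of forebrain markers of 7.20 and 7.18, against 5.88 to 6.61 in the other 14. Both mice had received clozapine. Of the members, 32 had a mean above 4.87, the 95th percentile of 989 olfactory receptor clusters, which are taken as silent in brain. Cdh16, Cdh17 and Cdh26 were at or below it.

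Between hindbrain and forebrain the cadherins differed widely and in both directions. Cdh23, Pcdh18, Cdh19, Cdh20, Cdh18, Cdh1 and Cdh7 rose in hindbrain by 0.51 to 0.91 on the log2 scale, and Cdh9, Pcdh1 and Pcdh20 fell by 0.86 to 1.19. Leaving out the 5 mice with cerebellar markers in hindbrain was added after the data were seen. Over the other 11 mice the rises ran from 0.45 (Cdh7) and 0.47 (Cdh18) to 0.97 (Cdh23). The falls ran from -0.82 (Pcdh20) to -1.13 (Cdh9). In the fit over all clusters 28 of the 35 members were called (80%), 16 higher and 12 lower in hindbrain, against 47.2% of all 28310 clusters (27.5% higher and 19.7% lower). The fit used limma with group means, treatment, 5 surrogate variables (components of unexplained variation between arrays) and the mouse as a random block, and a call is a false discovery rate (FDR) below 0.05. The median size of the fitted difference was 0.25 over the members and 0.10 over all clusters. The sign of the difference within a mouse was the same in all 16 mice for 15 members, 7 higher and 8 lower, against 20.2% of clusters. The 16 hindbrain arrays did not overlap the 16 forebrain arrays for 5 members, against 9.04% of clusters. These were Cdh20 and Cdh7, higher in hindbrain, and Cdh9, Pcdh1 and Pcdh20, lower. On the 1.0ST arrays 6 members did not overlap (Cdh20, Cdh23, Cdh7, Cdh11, Cdh9 and Pcdh1), against 9.54% of clusters, while Pcdh20 did. Sizes below are mean differences within mice with their SD (n = 16), and the fitted estimate follows with its SE and FDR. In bulk tissue fewer cells of a type and less RNA per cell cannot be told apart.

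**Figure D1:**
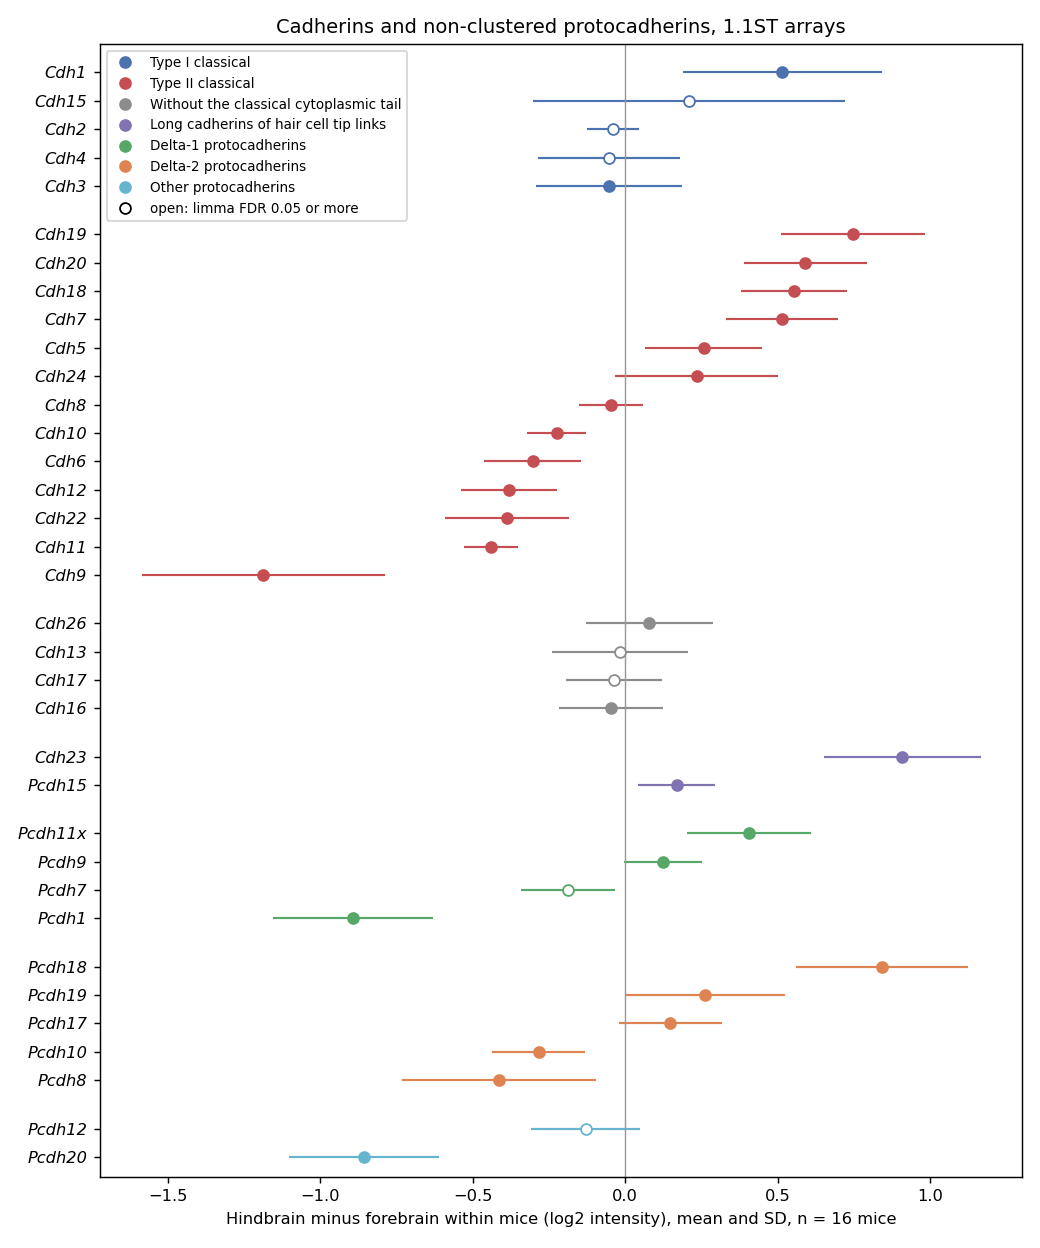
Mean difference between hindbrain and forebrain within mice (x axis, log2 intensity) for each of the 35 members (y axis, ordered by class), with bars of 1 SD over 16 mice, filled where limma called the member. Type II cadherins spread from Cdh9 at -1.19 to Cdh19 at 0.75, and Cdh23 lies farthest to the right at 0.91.

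All 13 type II classical cadherins were called, 6 higher and 7 lower in hindbrain. Cdh9, which in the mouse hippocampus takes part in forming mossy fibre synapses, differed most. Its hindbrain arrays had a lowest, median and highest level of 6.56, 7.56 and 7.98, against 8.35, 8.72 and 9.19 in forebrain. Every hindbrain array was below every forebrain array, and Cdh9 was lower in hindbrain by 1.19 ± 0.40 on the log2 scale, or 2.28-fold (fit -1.01, SE 0.10, limma FDR = 3.61e-12). The gene lies at chr15:16728550-16857138. Cdh11, also called OB-cadherin after osteoblasts, had 9.73, 9.96 and 10.19 in hindbrain, against 10.17, 10.40 and 10.61 in forebrain. The ranges of Cdh11 met in a narrow band, the difference was -0.44 ± 0.09 and every mouse had the lower level in hindbrain (fit -0.39, SE 0.04, limma FDR = 3.42e-10). Cdh22 (-0.39), Cdh12 (-0.38), Cdh6 (-0.30) and Cdh10 (-0.22) were also lower, in all 16 mice for Cdh22, Cdh12 and Cdh10 and in 15 for Cdh6. Cdh8 was called with a mean difference of only -0.05.

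Cdh20, whose chick counterpart marks pools of motor neurons, had a lowest, median and highest level of 8.47, 8.72 and 8.84 in hindbrain, against 7.85, 8.08 and 8.45 in forebrain. The lowest hindbrain array was thus just above the highest forebrain array, and the difference was 0.59 ± 0.20 (fit 0.45, SE 0.06, limma FDR = 1.73e-08). Cdh7, known from migrating neural crest cells of the chick, had 8.89, 9.04 and 9.49 in hindbrain, against 8.30, 8.61 and 8.79 in forebrain. Again no array of one region reached the other, with a difference of 0.51 ± 0.18 (fit 0.36, SE 0.04, limma FDR = 2.37e-09). Cdh18 had 8.53, 8.81 and 9.31 in hindbrain, against 8.06, 8.34 and 8.68 in forebrain. The Cdh18 ranges overlapped, yet each of the 16 mice had the higher level in hindbrain, by 0.55 ± 0.17 (fit 0.36, SE 0.04, limma FDR = 4.65e-11).

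Cdh19, a cadherin of Schwann cell precursors and other glia, had a lowest, median and highest level of 7.38, 7.82 and 8.28 in hindbrain, against 6.41, 7.16 and 7.56 in forebrain. It was higher in hindbrain in all 16 mice, by 0.75 ± 0.24, or 1.68-fold (fit 0.61, SE 0.10, limma FDR = 1.36e-06), although the ranges overlapped. The 4 measured markers of oligodendrocytes rose together with it (median 0.77), with a mean level of 10.97 to 11.32 in hindbrain and 10.00 to 10.55 in forebrain, and the part of this glial marker difference in Cdh19 was not tested. Cdh5, the VE-cadherin of endothelial junctions, was higher by 0.26 ± 0.19, in 14 of 16 mice. Of 8 endothelial markers 7 rose in hindbrain (median 0.21), with a mean level of 7.72 to 8.35 in hindbrain and 7.28 to 8.07 in forebrain, and their part in the Cdh5 difference was not tested. Pcdh12, an endothelial protocadherin also called VE-cadherin-2, was not called, with a paired difference of -0.13.

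Of the 5 type I cadherins, 2 were called. Cdh1, the E-cadherin of epithelia, had a lowest, median and highest level of 5.70, 5.97 and 6.57 in hindbrain, against 5.18, 5.56 and 5.76 in forebrain. It was higher in hindbrain in each of the 16 mice, by 0.52 ± 0.33, with a short overlap of the ranges (fit 0.53, SE 0.10, limma FDR = 8.71e-06). On the 1.0ST arrays the paired difference of Cdh1 was 0.26 and the fitted 0.08 was not called (limma FDR = 0.424). Of 6 markers of meninges and fibroblasts 4 were called higher in hindbrain (median 0.37), with a mean level of 7.01 to 7.90 in hindbrain and 6.62 to 7.23 in forebrain, and their part in the differences of Cdh1, Pcdh18 and Cdh11 was not tested. Cdh3, the P-cadherin, was called lower with a paired difference of only -0.05. Cdh2, the N-cadherin of neurons, hardly moved between regions, with a lowest, median and highest level of 10.09, 10.25 and 10.36 in hindbrain and 10.17, 10.28 and 10.38 in forebrain. Cdh4, the R-cadherin first found in retina, was not called either (paired difference -0.05).

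Cdh15, the M-cadherin of muscle that is also known from cerebellar granule cells, had the widest spread in hindbrain without being called. The 5 hindbrain arrays with cerebellar markers had a lowest, median and highest level of 5.39, 5.75 and 6.67, against 4.88, 5.01 and 5.22 in the other 11 hindbrain arrays. All 5 thus lay above all 11, and the level of Cdh15 went up with the marker level. All 5 came from clozapine mice, as did 3 of the other 11. Between the group means hindbrain Cdh15 was 0.545 higher after clozapine than after vehicle, and the fit over all arrays did not call it for clozapine. The parts of treatment and of the cerebellar markers in the Cdh15 level were not tested. With the 5 mice the paired difference from forebrain was 0.21 ± 0.51, and without them -0.07 ± 0.18, with 3 of 11 mice higher. The same hindbrains had, on the 1.0ST arrays, 7.18 to 8.07 against 6.87 to 7.29, which overlap. The level of silent genes on that format, taken in the same way, was 7.32, and the mean of Cdh15 was not above it.

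Both long cadherins that form the tip links of hair cells were called higher in hindbrain. Cdh23 had a lowest, median and highest level of 5.64, 6.37 and 6.77 in hindbrain, against 5.05, 5.45 and 5.78 in forebrain. Its ranges overlapped by a few arrays, and in each of the 16 mice it was higher in hindbrain, by 0.91 ± 0.26, or 1.88-fold (fit 0.82, SE 0.10, limma FDR = 7.34e-10). This was the largest rise among the members on the 1.1ST arrays, while on the 1.0ST arrays the paired difference of 0.63 was below those of Pcdh18 and Cdh19. Pcdh15, its partner in the tip link, rose by 0.17 ± 0.13, in 15 of 16 mice (fit 0.27, SE 0.05, limma FDR = 2.44e-06). Among the 4 cadherins grouped here as without the classical tail, Cdh16 and Cdh26 were called at the level of silent genes. Cdh16 had a fitted difference of 0.10 and a paired one of -0.04. Cdh13, the T-cadherin held by a lipid anchor, was well above that level and was not called (paired difference -0.02).

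The 5 delta-2 protocadherins were all called, 3 higher and 2 lower in hindbrain. Pcdh18, which in the mouse binds the adaptor Dab1, had a lowest, median and highest level of 7.77, 8.41 and 8.68 in hindbrain, against 6.90, 7.58 and 8.01 in forebrain. It was higher in hindbrain in all 16 mice, by 0.84 ± 0.28, or 1.79-fold, and only the lowest hindbrain array reached into the forebrain range (fit 0.72, SE 0.06, limma FDR = 2.70e-13). Pcdh19, an X-linked gene mutated in a human epilepsy, was higher by 0.26 ± 0.26, and Pcdh17, which acts in synapses between cortex and basal ganglia, by 0.15 ± 0.17, each in 14 of 16 mice. Pcdh8, known as arcadlin and induced at synapses by activity in the rat, had a paired difference of -0.41 ± 0.32 and was lower in 15 of 16 mice. Over the 11 mice without cerebellar markers in hindbrain the Pcdh8 difference was -0.27 ± 0.19. Pcdh10, needed for the growth of striatal axons in the mouse, had a paired difference of -0.28 ± 0.15 and was lower in every mouse.

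Of the 4 delta-1 protocadherins, 3 were called. Pcdh1, which is also found in airway epithelium, had a lowest, median and highest level of 5.26, 5.71 and 6.06 in hindbrain, against 6.27, 6.67 and 6.90 in forebrain. No hindbrain array reached the lowest forebrain array, and the difference was -0.89 ± 0.26, or 1.86-fold (fit -0.73, SE 0.07, limma FDR = 1.17e-12). The X-linked Pcdh11x was higher in hindbrain by 0.40 ± 0.20, in 15 of 16 mice, and Pcdh9 by 0.12 ± 0.13, in 13. Pcdh7 was not called, although 15 of 16 mice had the lower level in hindbrain (paired difference -0.19 ± 0.16, limma FDR = 0.0807). Pcdh20, a protocadherin of no delta class here, had 7.20, 7.68 and 8.01 in hindbrain, against 8.19, 8.52 and 8.70 in forebrain. The regions did not overlap, with a paired difference of -0.86 ± 0.25 (fit -0.75, SE 0.07, limma FDR = 9.41e-13). Markers of choroid plexus (6 of 7 called lower in hindbrain, median -0.96) and of the olfactory bulb (4 of 4, median -0.69) were lower as well, and their part in the lower members was not tested.

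**Figure D2:**
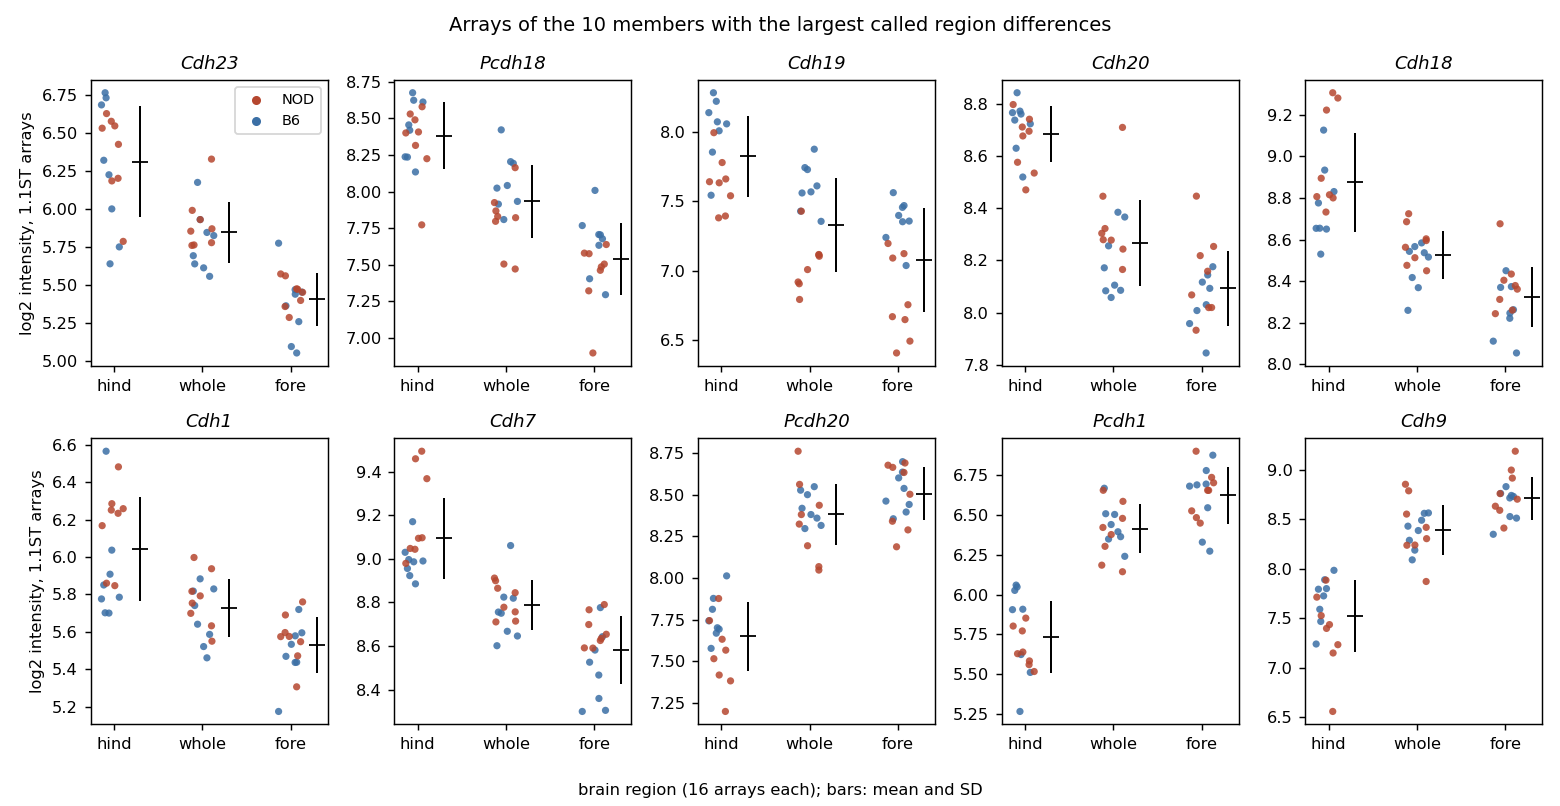
Level of the 10 members named with the largest called region differences (y axis, log2 intensity, 1.1ST arrays) in hindbrain, whole brain and forebrain (x axis), 1 point per array, NOD in red and B6 in blue, with mean and SD of 16 arrays. Whole brain lies between the other regions for all 10, and hindbrain and forebrain do not overlap for Cdh20, Cdh7, Pcdh20, Pcdh1 and Cdh9.

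Members that follow each other on a chromosome, with room for other genes in the gaps, did not always share a direction. The closest pairs were Cdh3 and Cdh1 on chromosome 8 (0.0464 Mb), called lower and higher, and Pcdh1 and Pcdh12 on chromosome 18 (0.0550 Mb). In the first pair Cdh3 had a paired difference of only -0.05. On the 1.0ST arrays the mean of Cdh3 was not above the level of silent genes, and Cdh1 was not called. Of the second pair only Pcdh1 was called, lower in hindbrain. On chromosome 1, Cdh20, Cdh7 and Cdh19 follow each other at gaps of 4.99 and 0.743 Mb, and all 3 were higher in hindbrain. On chromosome 15, Cdh6, Cdh9, Cdh10, Cdh12 and Cdh18 follow each other at gaps of 3.55, 1.96, 1.43 and 0.951 Mb. The first 4 of these were lower and Cdh18 was higher. On chromosome 14, Pcdh8 and Pcdh20 were lower while Pcdh17, which lies between them, and Pcdh9, which follows, were higher, at gaps of 4.67, 3.93 and 4.54 Mb. The promoters of the first 3 are those shown above.

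The formats gave paired differences of the same sign for 31 of 35 members. Between hindbrain and forebrain the 1.0ST differences were -1.04 for Cdh9, -0.63 for Pcdh1 and -0.70 for Pcdh20, and 0.76 for Pcdh18, 0.70 for Cdh19, 0.54 for Cdh20, 0.53 for Cdh7 and 0.51 for Cdh18. The fit with surrogate variables on the 1.0ST arrays called 13 members, 8 higher and 5 lower, against 19.3% of clusters, and all 13 were called with the same sign on the 1.1ST arrays. The R2 of region in each of the variables was 0.0673 to 0.668 on the 1.0ST arrays and 0.0428 to 0.202 on the 1.1ST arrays. Without them 27 of the 35 members were called on the 1.0ST arrays, about the same share as that of all clusters (background 77.1%). On the 1.1ST arrays 28 were called (background 65.7%). This alternative was added for the 1.0ST arrays after the data were seen. The comparison without the 5 hindbrain arrays called 27 members (background 43.6%), that without the 7 arrays 26 (background 51.6%) and that without the B6 hindbrain arrays of BB685 and BB702 25 (background 49.3%), all 3 added after the data were seen.

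**Figure D3:**
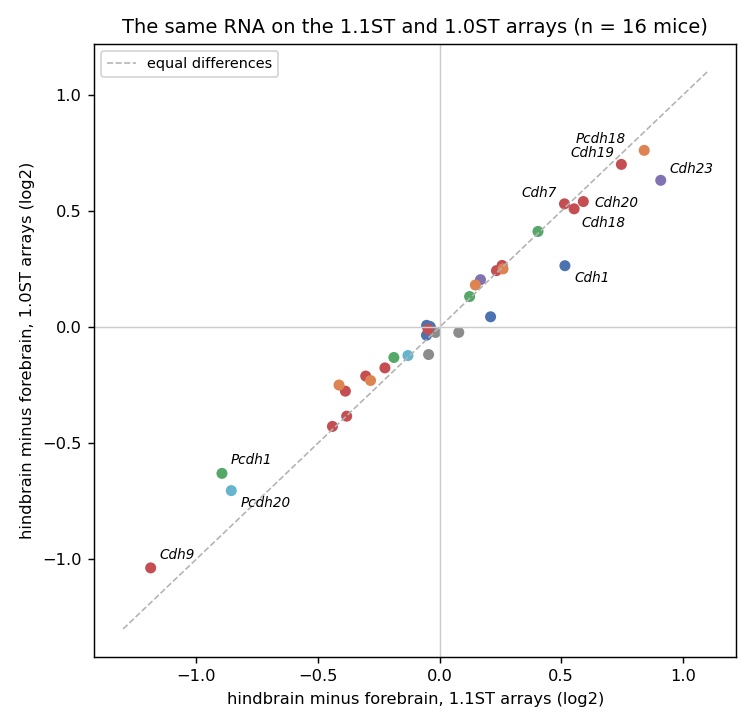
Mean difference between hindbrain and forebrain within 16 mice on the 1.1ST arrays (x axis, log2 intensity) and on the 1.0ST arrays (y axis), 1 point per member in the class colours of the plot by class, with a dashed line of equal differences. The points follow the line, and Cdh23 (0.91 and 0.63), Pcdh1 (-0.89 and -0.63) and Cdh1 (0.52 and 0.26) lie farthest from it.

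Whole brain resembled forebrain more than hindbrain. For 29 of the 35 members its mean level lay between the other regions, and for 29 it was closer to forebrain. The comparisons of hindbrain and of whole brain with forebrain share the forebrain arrays. In whole brain 12 members were called against forebrain, 10 higher and 2 lower, against 14.4% of clusters (8.48% higher and 5.89% lower). Cdh23 had the largest fitted difference (0.43, SE 0.07, limma FDR = 2.93e-05), followed by Cdh9 (-0.31, FDR 0.00165) and Pcdh18 (0.28, FDR 2.65e-05). Cdh1, Pcdh11x, Pcdh19, Cdh7, Pcdh17, Cdh24, Cdh18 and Cdh16 were higher by fitted differences of 0.10 to 0.21, and Cdh11 was lower (-0.11). Of these Cdh16 was at the level of silent genes, with a mean of 4.73 in whole brain and 4.69 in forebrain. Only Cdh23 (higher) and Cdh11 (lower) had the same sign in all 16 mice, against 1.88% of clusters. For no member were the arrays of both regions apart, against 0.0353% of clusters. Limma called no member on the 1.0ST arrays (background 1.65%, 8 members at an unadjusted p below 0.05), and 14 without the surrogate variables (background 16.5%). On the 1.1ST arrays 6 members were called without NOD mouse DD676 and 7 without NOD mouse DD657, with no share over all clusters given for either. Without DD676 the Cdh9 difference was -0.17 and was lost (limma FDR = 0.224). With single mice left out in turn, Cdh24 lost its call for 12 of the 16 mice (all but DD659, DD678, BB685 and BB687), and its fitted difference on the 1.0ST arrays was -0.0043. Cdh1 lost it for 7 (DD657, DD658, DD676, DD677, BB685, BB687 and BB701), Pcdh17 for 4 (DD657, DD676, BB687 and BB708), Pcdh19 for 3 (DD657, DD675 and BB708) and Cdh18 for 2 (DD675 and DD676). In 4 whole brain arrays (NOD mice DD657, DD658 and DD675, B6 mouse BB708) the mean level of the cerebellar markers was 7.33 to 7.86, against 6.30 to 6.86 in the other 12. Without these 4 and the 5 hindbrain arrays, an alternative added after the data were seen, 10 members were called (background 13.2%), and Pcdh19, Pcdh17 and Cdh24 (0.10 each) were not among them.

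In hindbrain 24 members were called against whole brain, 13 higher and 11 lower, against 43.4% of clusters (26% higher and 17.4% lower). Pcdh1 (fit -0.60, SE 0.05, limma FDR = 1.48e-12) and Pcdh20 (fit -0.64, SE 0.06, limma FDR = 5.78e-13) were lower with no overlap of the arrays, against 1.86% of clusters. On the 1.0ST arrays both overlapped, and Cdh11 was the only member that did not, against 1.88% of clusters. Cdh9 differed most (fit -0.70), and Cdh19 (0.44), Pcdh18 (0.44) and Cdh23 (0.39) were the most raised. The sign was the same in every mouse for 8 members, against 10.8% of clusters. On the 1.0ST arrays 14 members were called (background 26.9%), and on the 1.1ST arrays without the 9 arrays with cerebellar markers 21 (background 37.6%).

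The question of strain was asked in each region. Cdh19 was the member with the largest strain difference, lower in NOD in all 3 regions. In the fit over all arrays Pcdh17 was also called lower in NOD in each region. In hindbrain 7 members were called (2 higher and 5 lower in NOD, background 20.4%), in whole brain 8 (4 higher and 4 lower, background 18%) and in forebrain 7 (4 higher and 3 lower, background 17.7%). The median size of the fitted strain difference was 0.09 over the members in hindbrain and 0.07 over all clusters, and in forebrain 0.07 and 0.06. Without surrogate variables 11 members were called in hindbrain (background 17.2%), 4 in whole brain (background 10.7%) and 3 in forebrain (background 11.7%). The 4 were Cdh19, Cdh22, Pcdh11x and Pcdh18, and the 3 were Cdh19, Cdh22 and Pcdh17. Single mice moved the counts as well, to 14 in hindbrain without NOD mouse DD675, 11 in hindbrain without NOD mouse DD678 and 5 in whole brain without NOD mouse DD656. The share over all clusters is not given for these fits.

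Cdh19 in hindbrain had a lowest, median and highest level of 7.38, 7.64 and 8.00 in NOD, against 7.55, 8.07 and 8.28 in B6. In whole brain it had 6.79, 7.06 and 7.43 in NOD, against 7.36, 7.59 and 7.88 in B6. In forebrain it had 6.41, 6.71 and 7.20 in NOD, against 7.04, 7.38 and 7.56 in B6. The strains overlapped in each region, by few arrays in whole brain and forebrain. The mean difference was -0.39 in hindbrain, or 1.32-fold (limma FDR = 0.0143), -0.56 in whole brain (limma FDR = 1.80e-05) and -0.56 in forebrain, or 1.48-fold (limma FDR = 3.57e-05), and all 3 were called on the 1.0ST arrays as well. Fitted on 1 region alone, whole brain (-0.60, limma FDR = 0.000141) and forebrain (-0.52, limma FDR = 0.0348) kept the call of Cdh19 and hindbrain lost it (-0.32, limma FDR = 0.0806). The markers of oligodendrocytes were not called lower in NOD, 1 of 4 being higher in forebrain. Their mean level was 10.17 to 10.55 in NOD forebrain and 10.00 to 10.49 in B6 forebrain, and their part in the strain difference of Cdh19 was not tested. The gene lies at chr1:110888002-110977601, within the run of Cdh20, Cdh7 and Cdh19, and Cdh7 was higher in NOD forebrain (fit 0.13, limma FDR = 0.0215). This call of Cdh7 was lost without surrogate variables.

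Pcdh17 had a lowest, median and highest level of 8.69, 8.93 and 9.13 in NOD hindbrain, against 9.06, 9.19 and 9.36 in B6. The fitted differences of Pcdh17 were -0.18 in hindbrain, -0.14 in whole brain and -0.20 in forebrain, with overlap in each region. Its hindbrain call was lost without the B6 hindbrain arrays of BB685 and BB702, an alternative added after the data were seen. Without surrogate variables its whole brain call was lost on the 1.1ST arrays. Pcdh18 was lower in NOD whole brain (-0.26) and forebrain (-0.18), and Pcdh9 in NOD hindbrain (-0.19) and whole brain (-0.12). In NOD forebrain 4 of 8 endothelial markers were lower (median -0.16) and 3 of 4 olfactory bulb markers (median -0.73), whose part in these differences was not tested. Pcdh11x in whole brain was the only member on the 1.1ST arrays whose strains did not overlap, against 3.29% of clusters (3.88% in hindbrain and 3.49% in forebrain). Its 8 NOD arrays had 9.38 to 9.49, against 9.18 to 9.34 in the 8 B6 arrays (fit 0.17, SE 0.05, limma FDR = 0.00694), but on the 1.0ST arrays they overlapped. Cdh22, called PB-cadherin after pituitary and brain, was higher in NOD whole brain (0.22) and forebrain (0.24), as were Cdh13 (0.14 and 0.18) and, in forebrain, Pcdh19 (0.16). On the 1.1ST arrays without surrogate variables Cdh22 kept these calls, while Cdh13 and Pcdh19 lost theirs. Pcdh15 was higher in NOD hindbrain (0.14) and whole brain (0.15). Cdh6 (-0.18) and Cdh11 (-0.14) were lower and Cdh18 (0.10) was higher in NOD hindbrain alone among the calls.

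**Figure D4:**
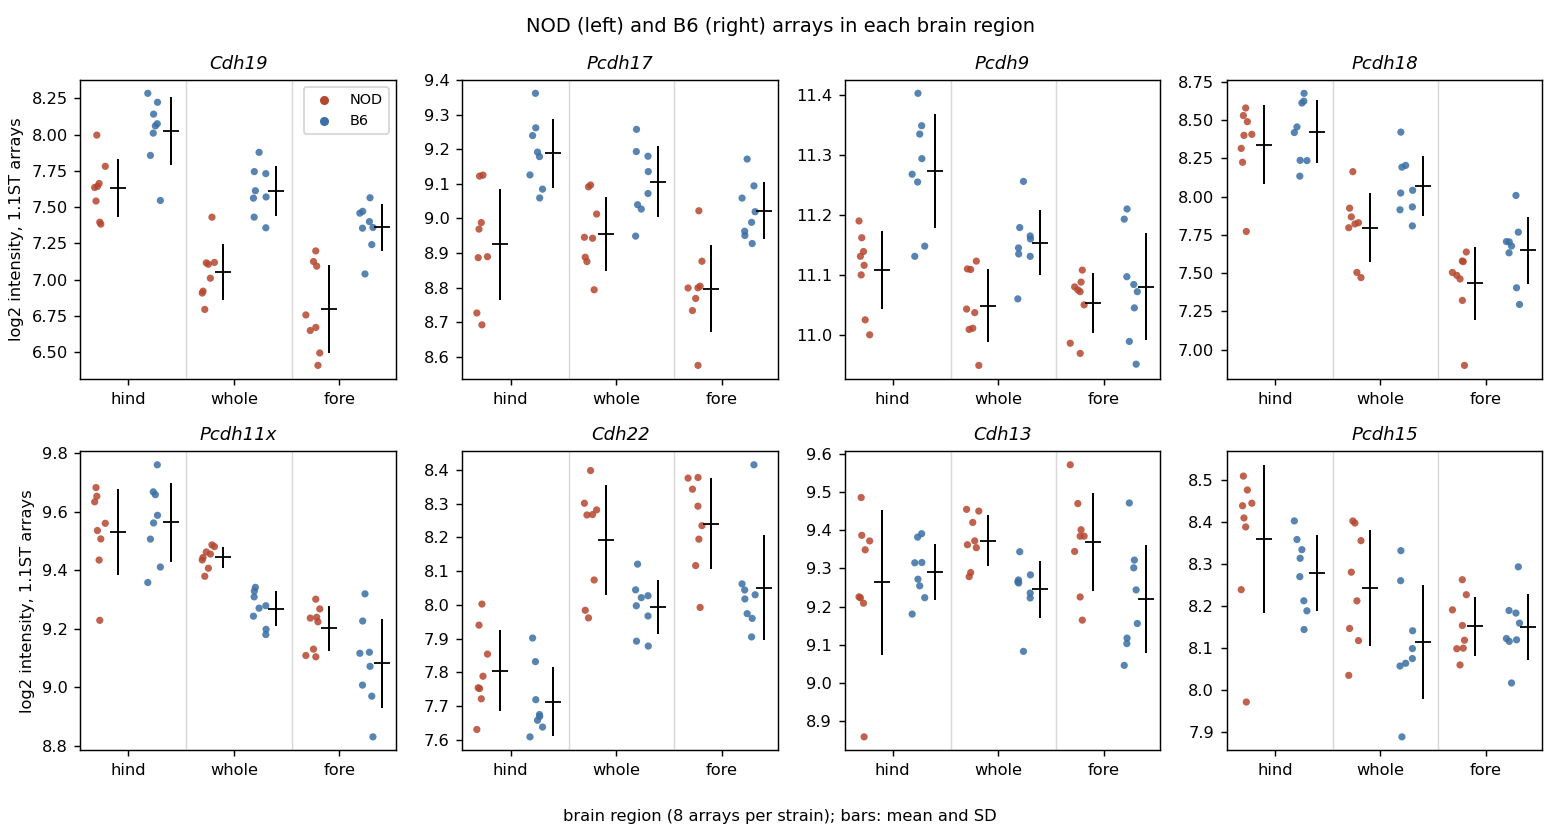
Level of 8 members called between the strains (y axis, log2 intensity, 1.1ST arrays) in hindbrain, whole brain and forebrain (x axis), with NOD arrays in red to the left of B6 arrays in blue, mean and SD of 8 arrays beside each group. Cdh19 and Pcdh17 are lower in NOD in each region, and the 8 NOD whole brain arrays of Pcdh11x lie above the 8 of B6.

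Whether the region difference depended on strain was tested by the interaction. Limma called no member on the 1.1ST arrays (background 2.29% of clusters, 8 members at an unadjusted p below 0.05). The smallest p was that of Pcdh9, for which hindbrain minus forebrain was 0.15 lower in NOD than in B6 (fit -0.15, limma FDR = 0.0973). The region difference of Cdh9 was -1.41 ± 0.44 in NOD and -0.96 ± 0.18 in B6 (SD, n = 8 mice each), and its interaction was not called (fit -0.31, limma FDR = 0.235). In hindbrain the mean level of the 6 forebrain markers was 6.14 (5.88 to 6.41) in NOD and 6.50 (6.07 to 7.20) in B6, and the part of this in the Cdh9 values was not tested. Cdh2 alone was called on the 1.0ST arrays (-0.12, limma FDR = 0.0223, background 3.04%). Leaving out single mice called up to 5 members, that number without NOD mouse DD675, 2 without NOD mouse DD657 or B6 mouse BB702, and 1 without NOD mouse DD676 or B6 mouse BB703. No share over all clusters is given for these counts. Without the 5 hindbrain arrays with cerebellar markers 1 member, Pcdh18, was called (background 2.42%). Without the B6 hindbrain arrays of BB685 and BB702 limma again called none (7 members at an unadjusted p below 0.05).

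Clozapine went with small differences. In the fit over all arrays 2 members were called, Cdh11 and Pcdh18, both lower after clozapine, against 2.92% of clusters in either direction and 1.89% lower. The mean of the 3 regions of a mouse for Cdh11 had a lowest, median and highest level of 9.97, 10.12 and 10.34 after clozapine, against 10.19, 10.28 and 10.37 after vehicle. The ranges overlapped, and the median clozapine mouse was below the lowest vehicle mouse. The fitted difference was -0.15 (SE 0.03, limma FDR = 0.00151). For Pcdh18 the mouse means were 7.53, 7.88 and 8.12 after clozapine, against 7.90, 8.05 and 8.22 after vehicle. These too overlapped, with a fitted difference of -0.17 (SE 0.04, limma FDR = 0.00628). Fitted on 1 mean per mouse, limma called neither (FDR 0.115 for Cdh11 and 0.145 for Pcdh18, background 0.0424%, 9 members at an unadjusted p below 0.05).

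By region, Cdh11 differed by -0.12 in hindbrain, -0.12 in whole brain and -0.18 in forebrain between the group means. For Pcdh18 these were -0.18, -0.25 and -0.22. The levels overlapped in each region for both genes. A fit on hindbrain alone gave 0.011 for Pcdh18 (limma FDR = 0.968), and no region alone gave a call for either gene. Within NOD alone Cdh11 was called (-0.23, limma FDR = 0.00805) and within B6 alone it was not (-0.10, limma FDR = 0.438), while Pcdh18 was called in neither. The mixed model per transcript called neither gene (FDR 0.122 for Cdh11 and 0.144 for Pcdh18). Pcdh18 was not called on the 1.0ST arrays (-0.13, limma FDR = 0.0858), nor without NOD mouse DD656 (-0.13, limma FDR = 0.0605) or NOD mouse DD676 (-0.10, limma FDR = 0.129), while Cdh11 kept its call on the 1.0ST arrays and without each single mouse. Without DD656 or DD676 1 member was called, and 4 without NOD mouse DD675, counts for which no share over all clusters is given. The hindbrain level of the 7 cerebellar markers was 6.63 to 10.05 after clozapine and 6.60 to 7.29 after vehicle, and without the 5 hindbrain arrays named above the same 2 genes, Cdh11 and Pcdh18, were called. Pcdh20 had the third smallest p (fit -0.13, limma FDR = 0.0769) and was called on the 1.0ST arrays. Of 8 endothelial markers 5 were lower after clozapine (median -0.18), with a mean level of 7.72 to 8.31 in hindbrain after clozapine and 8.02 to 8.35 after vehicle, and of 4 markers of oligodendrocyte precursors 2 were lower. The endothelial Cdh5 was not called (fit -0.04, limma FDR = 0.574), while its mouse means differed by -0.11. In hindbrain the lowest, median and highest level of Cdh5 was 7.39, 7.62 and 8.03 after clozapine, against 7.61, 7.84 and 8.24 after vehicle, a difference of -0.22 with overlap. Pcdh12 was not called either (fit -0.01), with mouse means that differed by -0.02. The 6 markers of meninges and fibroblasts were not called, with a mean level of 7.01 to 7.45 in hindbrain after clozapine and 7.10 to 7.90 after vehicle, and the part of these markers in the Cdh11 and Pcdh18 differences was not tested.

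**Figure D5:**
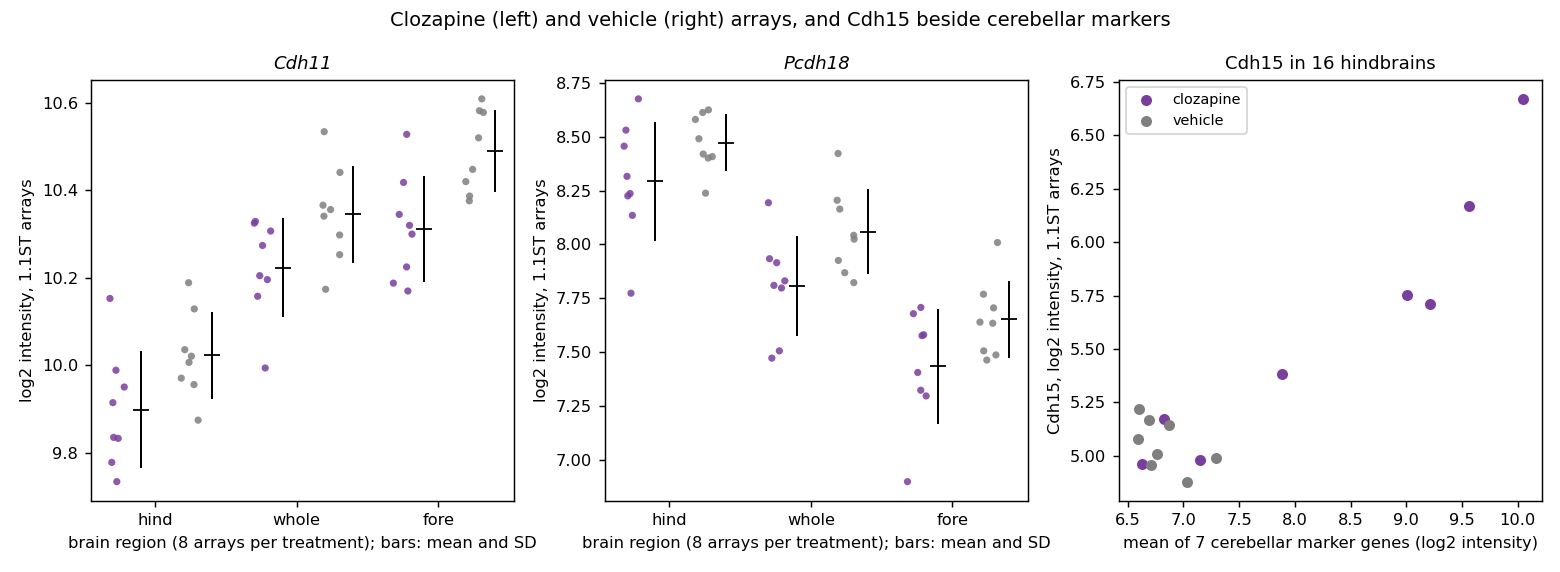
Left and middle, level of Cdh11 and Pcdh18 (y axis, log2 intensity, 1.1ST arrays) by region (x axis) with clozapine in purple to the left of vehicle in grey, mean and SD of 8 arrays beside each group. Right, Cdh15 (y axis) against the mean of 7 cerebellar markers (x axis) in 16 hindbrain arrays, in which 5 clozapine arrays lie apart at marker levels of 7.89 to 10.05.

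Genes around the cadherins were read from 3 lists. Of 13 catenins and partners of the cadherin tail, 10 were called between hindbrain and forebrain, 6 higher and 4 lower, where the background was 47.2%. Ctnna3, an alpha-catenin, was the most raised (7.32 ± 0.23 in hindbrain and 6.24 ± 0.19 in forebrain, SD, n = 16 each, fit 0.83), and Ctnnd2, the neural delta-catenin, was lowered (10.55 ± 0.13 and 11.01 ± 0.09, fit -0.41). Of 23 other genes of the cadherin superfamily, 14 were called, 6 higher and 8 lower. Ret, a receptor tyrosine kinase with cadherin-like repeats, rose most (9.14 ± 0.32 in hindbrain and 6.43 ± 0.46 in forebrain, fit 2.32), while Celsr1 (-0.49) and Celsr2 (-0.48), cadherins of planar polarity, and Cdhr1 (-0.82), itself an olfactory bulb marker, fell. Of 22 clustered protocadherins 9 were called, 1 higher (Pcdhb18, 0.13) and 8 lower (among them Pcdhb7, -0.31, and Pcdhb13, -0.31). In NOD against B6, 18 of the 22 were called higher in hindbrain (background 11.8% higher), 12 in whole brain (background 9.27%) and 8 in forebrain (background 8.98%), led in forebrain by Pcdhb3 (fit 0.88, SE 0.05) and Pcdhb11 (0.58).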

How the data were processed

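RNA of 48 tissue samples was hybridised to 96 arrays. The authors summarised and normalised them by RMA in Affymetrix Expression Console 1.1, per the submitters' processing notes, and the deposited values are log2 intensities per transcript cluster. The 28310 clusters that the methods keep were tested. Region, strain, treatment and mouse come from the labels, whereas array batch and hemisphere, which the labels do not give, were not used. The number of arrays limits the precision.

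Models were fitted with limma 3.58.1 (statmod 1.5.0, R 4.3.3): 6 group means of strain and region, treatment, 5 surrogate variables (1000 transcripts each) and mouse as a random block (consensus correlation 0.0310), with two-sided tests and the FDR formula of the methods over all clusters, called below 0.05. Mixed models (lme4 1.1.37, lmerTest 3.1.3) were an alternative. The scripts were tested on simulated data. Arrays pair by mouse, as the labels state. The mean residual correlation was 0.0273 between arrays of 1 mouse and -0.00166 between mice. Genes named with full values had a called paired region difference of at least 0.5, a called strain difference of at least 0.3, or a call for clozapine or between whole brain and forebrain, and the 3 smallest p for clozapine were read. Levels of Cdh2, Cdh15 and Cdh5 were given outside this rule. Promoters and positions are from RefSeq GRCm38.p6. The members, classes and lists were chosen with earlier results of these data known. Olfactory receptor clusters set the silent level.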

Additional observations from a re-analysis of the deposited data

Results flagged for a closer look

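For the 15 members described with strain or region values, 90 groups of 8 arrays were searched for an array far from the others of its strain and region. 9 groups held one, where chance flags about 5% of groups. Pcdh19 had 4 of the 9. In NOD whole brain mouse DD658 was at 8.58 with the nearest array at 8.36, in NOD forebrain mouse DD676 was at 7.75 with the nearest at 8.09, in B6 whole brain mouse BB707 was at 8.47 with the nearest at 8.22, and in B6 forebrain mouse BB703 was at 8.22 with the nearest at 8.04. On the 1.0ST arrays the first 3 were also at the end of their group. Pcdh18 had 2, NOD hindbrain of mouse DD678 at 7.77 (nearest 8.23) and NOD forebrain of mouse DD676 at 6.90 (nearest 7.32), of which the forebrain value was not at the end of its group on the 1.0ST arrays. Cdh1 was at 6.57 in B6 hindbrain of mouse BB707 (nearest 6.04). Cdh18 was at 8.68 in NOD forebrain of mouse DD678 (nearest 8.43), the forebrain array that carried hindbrain markers. Cdh23 was at 6.33 in NOD whole brain of mouse DD656 (nearest 5.99), the whole brain array with low forebrain markers.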

How the results depend on the processing

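The counts of members called moved with the array format and the surrogate variables. On the 1.0ST arrays 13 were called between hindbrain and forebrain, 0 between whole brain and forebrain, 14 between hindbrain and whole brain and 1 for the interaction. Without surrogate variables strain calls numbered 11 in hindbrain, 4 in whole brain and 3 in forebrain. The 1.0ST arrays without them, added after the data were seen, gave 4 in whole brain (background 9.35%), 4 in forebrain (background 10.1%) and 1 for clozapine (background 1.23%). Surrogate variables from residuals gave 14 for strain in hindbrain, 4 for the interaction and 9 for clozapine. Among clusters with a mean above 5, 19 were called between hindbrain and forebrain and 5 between whole brain and forebrain. This filter gave 14 for strain in hindbrain and 3 for the interaction. Clusters with 1 symbol gave 21 between hindbrain and forebrain and 7 between whole brain and forebrain. The second cluster of a gene gave 1 for the interaction, as did leaving out the 5 hindbrain arrays, an alternative added after the data were seen. Forebrain alone gave 3 for strain. Clozapine calls numbered 0 on 1 mean per mouse, 0 in B6 alone, 1 in NOD alone, 0 in each region alone and 0 with the mixed model (background 0.053%). At an unadjusted p below 0.05 these settings with 0 calls had 9 members (limma, 1 mean per mouse), 9 (limma, B6 alone), 4, 5 and 4 (limma, hindbrain, whole brain and forebrain alone) and 5 (mixed model). No share over all clusters is given for surrogate variables from residuals, the cluster filters, the second cluster of a gene, or single regions and strains. For these settings a shift of the members cannot be told from a shift over all clusters. The cause of these shifts was not tested.

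With single mice left out, counts ranged from 19 to 31 between hindbrain and forebrain, from 6 to 14 between whole brain and forebrain (6 without DD676, 7 without DD657) and from 18 to 27 between hindbrain and whole brain. Strain counts ranged from 6 to 14 in hindbrain (14 without DD675, 11 without DD678), from 5 to 10 in whole brain (5 without DD656) and from 5 to 8 in forebrain. The interaction ranged from 0 to 5, and clozapine from 1 to 4 (4 without DD675, 1 without DD656 or DD676). No share over all clusters is given for single mice left out, so these ranges cannot be set against it. Of 25 named results under all settings, 2 of 788 values changed sign: Cdh24 in whole brain against forebrain was -0.0043 on the 1.0ST arrays, and Pcdh18 after clozapine was 0.011 in hindbrain alone. 74 kept their direction and lost the call. With the mouse as a fixed replicate block Cdh24 in whole brain against forebrain lost its call (0.12, limma FDR = 0.0820), and neither this pairing nor leaving out the replicate block moved a count by more than 1.5 times.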
